A study of Mus musculus with 30 samples.

Results

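AEG 3482 is a small molecule known from earlier work as a blocker of neuronal cell death that lowers signalling through JNK, a stress-activated kinase, and raises heat shock protein 70. Its effect on the transcriptome of cultured mouse tail fibroblasts was measured by RNA sequencing, by setting the 3 libraries labelled AEG 3482 against the 6 libraries labelled DMSO, the solvent in which compounds are dissolved. These are 9 of the 30 libraries in the series. Every gene that reached 1 TPM (transcripts per 1000000 transcripts, a level corrected for transcript length and library total) in at least 3 of the 9 libraries was included, which gave 12980 of the 29861 genes in the deposited table. Both groups were grown from CCG-HTA-1, a primary tail fibroblast line of the genetically mixed UMHet3 mouse stock, at passage 4, established from animals aged 5 to 8 weeks, and RNA was taken 48 hours after exposure and depleted of ribosomal RNA. The medium held high glucose, serum and antibiotics in both groups. No dose is given in the sources used here. The series text names 5 DMSO replicates, while 6 libraries carry that label, and all 6 were used.

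The study screened small molecules for cellular stress resistance and asked which pathways of it depend on NRF2. It holds 7 further compounds with 3 libraries each: Antimycin A, Dihydrorotenone, Diphenyleneiodonium Cl, BerberineA, Clofilium tosylate, Podofilox and Cardamonin. They share the line, passage, time and age of the animals, except that 1 Dihydrorotenone library is labelled with animals of 8 to 11 weeks. Cardamonin, a plant chalcone under which the NRF2 target Srxn1 was also high (a mean of 1466 TPM), is compared with AEG 3482 directly. All cultures come from 1 cell line, so the p-values describe the spread among these libraries and not among animals. Library numbers run consecutively within each group, so group and library batch cannot be told apart.

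NRF2 is a transcription factor held low by KEAP1 and released when reactive compounds modify KEAP1, after which it raises genes for glutathione, NADPH and detoxification through short DNA sites called antioxidant response elements. HSF1 is the corresponding factor for misfolded protein and raises chaperones when it is freed from HSP90. NF-kB drives cytokines, chemokines and acute phase proteins, and fibroblasts in culture can express many of these without immune cells being present.

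Across genes on the log2(TPM + 1) scale, the AEG 3482 libraries correlated with each other at r = 0.991 to 0.992, the DMSO libraries at 0.985 to 0.992, and libraries of different groups at 0.933 to 0.944. Between 12310 and 12366 genes reached 1 TPM in an AEG 3482 library and between 12569 and 12700 in a DMSO library. Under AEG 3482 the top 20 genes by level held 14.9% to 15.1% of the listed TPM, and under DMSO 18.3% to 19.3%. TPM keeps no sequencing depth, which is unknown here. The 11 fibroblast markers summed to 13183 to 14559 TPM under AEG 3482 and 12086 to 13698 TPM under DMSO, so markers of the labelled cell type were abundant in both groups, although 6 of the 11 fell and 2 rose. Krt5 of keratinocytes, Myod1 and Ckm of muscle, Plin1, Cidec and Lep of adipocytes and Tyrp1 of melanocytes were listed at 0 in all 9 libraries. Other markers of these types were detected. The 7 keratinocyte markers summed to 2.4 to 2.65 TPM under AEG 3482 and 2.03 to 2.94 TPM under DMSO. The 5 melanocyte markers summed to 1.55 to 2.22 and 4.54 to 6.93 TPM, and the 5 muscle markers to 0.0575 to 0.0932 and 0.395 to 0.688 TPM. In the AEG 3482 and the DMSO libraries, respectively, summed chondrocyte markers lay at 231 to 261 and 279 to 314 TPM, tendon markers at 60.9 to 62.6 and 77.7 to 85.6 and bone markers at 23.3 to 31.7 and 27.5 to 35.4.

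AEG 3482 moved most of the expressed genome. At a limma adjusted p below 0.05, 9123 of 12980 genes changed (70.3%), of which 5585 (43%) were higher and 3538 (27.3%) lower than in DMSO. Changes of at least 2-fold were found for 1412 genes (10.9%), 609 of them higher (4.69%) and 803 lower (6.19%). That count depends on the pseudocount and was 708 with 5 in place of 1. In 7904 genes (60.9%) the 2 groups of libraries did not overlap, 4898 of them higher (37.7%) and 3006 lower (23.2%). The median log2 fold change over all genes was 0.11, and the middle 90% of genes lay between −1.13 and 0.98. The share of changed genes that were higher, 61.2%, became 49.2% when libraries were scaled to equal median ratios, which moved the median of all genes to −0.01. Small changes are therefore read against that shift below.

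**Figure D1:**
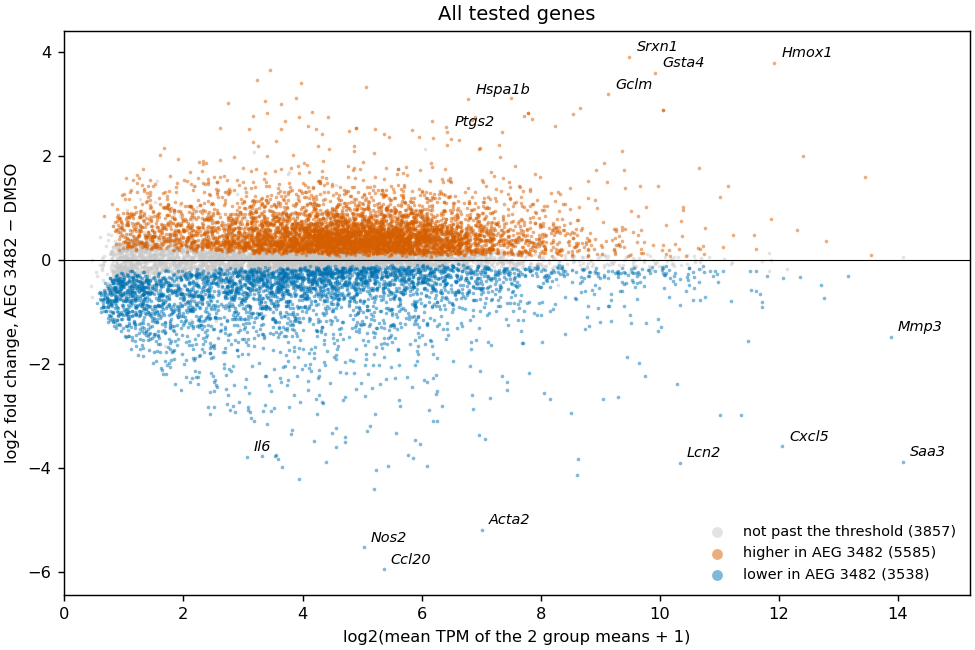
Each point is 1 of the 12980 genes, with its mean level in the 2 groups on the horizontal axis and the log2 fold change, AEG 3482 minus DMSO, on the vertical axis; orange genes were higher (5585), blue genes lower (3538) and grey genes did not pass the threshold. The largest falls reach further from 0 than the largest rises, and Saa3, the most abundant gene of the DMSO libraries, lies among the falls.

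The most abundant transcripts were among those that changed. Serum amyloid A3, an acute phase protein encoded by Saa3, was the most abundant gene under DMSO, while the ferritin heavy chain gene Fth1 was the most abundant under AEG 3482. Fth1 itself measured 17656, 18129.5 and 17734 TPM under AEG 3482 and 15985 to 17495 (median 17195) under DMSO and did not pass (limma adjusted p = 0.144), except that it counted as higher under quantile normalization. Ftl1, the ferritin light chain gene, rose from a DMSO mean of 5501 to 16687 TPM and became the next most abundant gene, although 64.1% of its 31-base words occur in other genes and its value is uncertain. Prdx1, a peroxiredoxin that removes hydrogen peroxide, rose from 2169.5 to 8626 TPM. Mmp3, a secreted protease that cuts matrix proteins, fell from 22047 to 7985 TPM.

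The naming rule took only genes whose AEG 3482 and DMSO libraries did not overlap. Separate libraries in the genes it named were thus set by the rule. The 12 largest rises by the naming rule were Srxn1, Hmox1, Gsta4, Gsta2, Gsta1, Gdf15, Gclm, Tmem117, Aldh3a1, Hspa1b, Ednrb and Prl2c3. Of these, Srxn1, Hmox1, the 3 Gsta genes, Gclm and Aldh3a1 serve antioxidant defence or detoxification. Srxn1, which encodes sulfiredoxin, the enzyme that repairs over-oxidised peroxiredoxins (chromosome 2, 152105516 to 152111376), measured 1229.7, 1431 and 1379 TPM in the AEG 3482 libraries. In DMSO its lowest library had 73.9 TPM, the median was 89.3 and the highest 103. The 2 groups did not overlap, and the log2 fold change was 3.92 ± 0.07 (SE), with a limma adjusted p of 8.24e-24. Hmox1, heme oxygenase 1, which opens the heme ring and releases iron (chromosome 8, 75093621 to 75100589), measured 7124, 7469 and 7154 TPM under AEG 3482 against 434 to 617 (median 524) under DMSO. Every treated library was thus above the highest control, and the gene rose by 3.80 ± 0.08 on the log2 scale.

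Other members of this group have no part in those pathways. Tmem117, a membrane protein gene, measured 25.4, 26 and 25.6 TPM against 1.52 to 2.87 (median 1.99) TPM in DMSO. Ednrb, the endothelin B receptor, measured 17.2, 16.9 and 18.3 TPM against 0.76 to 2.13 (median 1.07) TPM, and its Cardamonin mean was higher still, at 65.4 TPM. Prl2c3, a proliferin-type hormone gene, measured 10.3, 11.4 and 10.7 TPM and was listed at 0 in 3 of the 6 DMSO libraries, but 67% of its 31-base words occur in other genes. In all 3 genes the treated libraries lay above every control, as the naming rule required.

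The largest falls reached further than the largest rises and came from other kinds of genes. By the same naming rule they were led by Ccl20, Nos2, Acta2, Ch25h, Steap4, Cxcl2, Ccn2, Agtr1a, Lcn2, Saa3, Kcnf1 and Ptx3. Ccl20, a chemokine that attracts lymphocytes and dendritic cells (chromosome 1, 83116766 to 83119167), measured 0.268, 0.231 and 0.41 TPM under AEG 3482. Its DMSO libraries had a lowest value of 62.7 TPM, a median of 79.2 and a highest value of 95.5. With all treated libraries below 1 TPM and no overlap, the log2 fold change of −5.94 ± 0.13 on the log2(TPM + 1) scale understates the ratio. Acta2, smooth muscle actin, the defining gene of contractile myofibroblasts (chromosome 19, 34241090 to 34255590), fell from a DMSO median of 248 TPM (range 194 to 323) to 6.35, 5.59 and 5.56 TPM, a log2 fold change of −5.18 ± 0.14. Kcnf1, a potassium channel subunit, and Agtr1a, the angiotensin II receptor, fell by 3.83 and 3.95 on the same scale. Steap4, a metalloreductase raised in inflammation, fell from a DMSO median of 744 TPM (range 595 to 864) to 53, 39.5 and 32.8 TPM. Ptx3, a secreted pattern recognition protein, fell from a DMSO median of 726 TPM (range 646 to 838) to 55.6, 46 and 50 TPM, and Cxcl2, a neutrophil chemokine, by 3.97 on the log2 scale. No treated library of these 3 genes reached the lowest control, as the naming rule required.

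**Figure D2:**
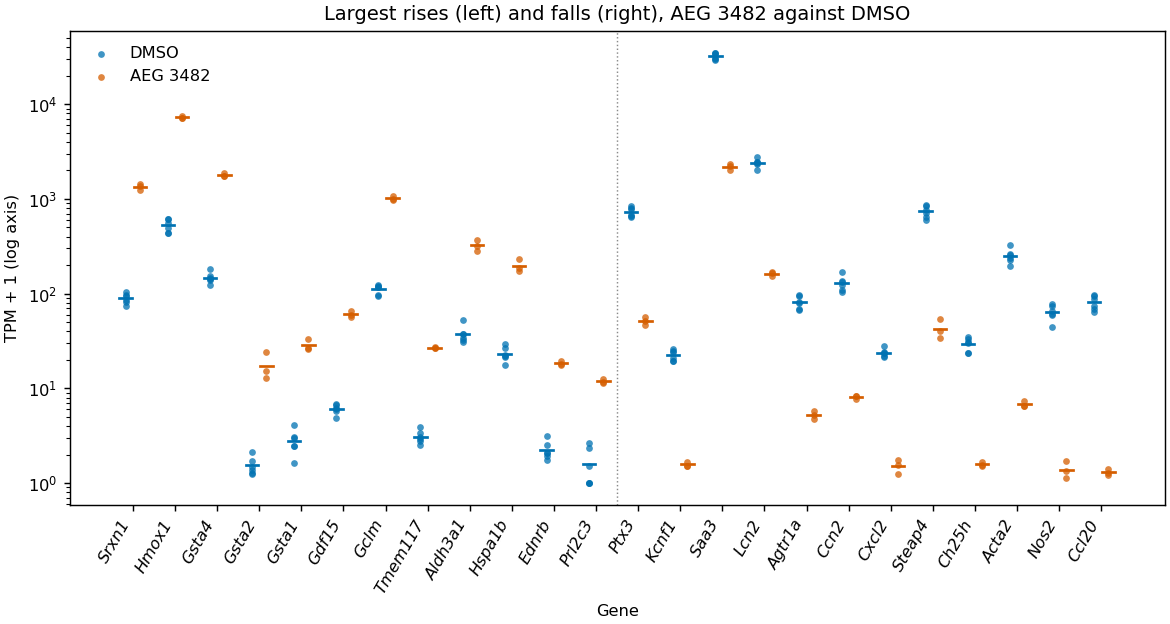
TPM + 1 on a log axis for the 12 largest rises (left of the dotted line) and the 12 largest falls (right of it), with 1 point per library (6 DMSO in blue, 3 AEG 3482 in orange) and a bar at each group's mean. For every gene shown the orange and blue points are separate, which the naming rule required. Saa3 drops from about the top of the axis to between 2033 and 2335 TPM.

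Glutathione genes rose together. All 6 tested genes of glutathione synthesis and cystine uptake rose, each at least 2-fold, with a median log2 fold change of 2.66 against 0.11 for all genes. Gclm and Gclc encode the modifier and catalytic subunits of the rate-limiting enzyme. Gclm (chromosome 3, 122245557 to 122270732) measured 988, 975 and 1077 TPM against 92.3 to 122 (median 117) TPM in DMSO, and its log2 fold change was 3.19 ± 0.07 (limma adjusted p = 5.72e-22). Gclc rose by 2.78 and Gss, the synthetase of the next step, by 2.75. Gsr, which returns oxidised glutathione to its reduced form, rose by 2.56. The cystine importer subunits Slc7a11 and Slc3a2 rose by 2.38 and 1.10. As a sum, the 6 genes went from 333 to 401 TPM under DMSO to 2039 to 2222 TPM under AEG 3482.

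The genes that make NADPH, the cofactor that glutathione and thioredoxin reductases use, moved the same way. In this list 8 of 9 rose, with a median of 0.90. Taldo1, of the pentose phosphate pathway, rose by 2.58, and G6pdx and Pgd, which carry out its oxidative steps, rose by 2.15 and 1.87. G6pdx measured 194, 211 and 206 TPM under AEG 3482 and 41.5 to 50.2 (median 44) TPM under DMSO, with no overlap. Me1, malic enzyme, rose by 0.99. Idh1 rose by 0.17, a call that was lost when libraries were scaled by median ratios or by quantiles.

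Within the thioredoxin and peroxiredoxin genes the rise was uneven. Of 12 tested, 7 rose and 5 did not pass, and the median of 0.16 was near that of all genes. Besides Srxn1, Txnrd1, the reductase, rose by 2.71, and Txn1, thioredoxin itself, rose from a DMSO mean of 288 to 814 TPM, as did Prdx1 by the values above. Txnrd1 measured 396, 404 and 397 TPM against 53.8 to 72.5 (median 57.4) TPM under DMSO, so that the groups did not overlap. For the mitochondrial peroxiredoxins Prdx3 and Prdx5 the log2 fold changes were 0.03 and −0.10, neither past the threshold. Under median-ratio and quantile scaling 2 and 3 genes of this list counted as lower, Prdx5 among those of the first.

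Detoxification enzymes for quinones and aldehydes rose in 13 of 16 tested cases, with a median of 0.68. Nqo1, a quinone reductase widely used as an NRF2 marker (chromosome 8, 107388225 to 107403206), measured 603, 635 and 708 TPM under AEG 3482 and 79.4 to 108 (median 88.9) TPM under DMSO, and rose by 2.83 ± 0.07. Aldh3a1, an aldehyde dehydrogenase, rose by 3.12, Ephx1, an epoxide hydrolase, by 2.10, and Cbr3, a carbonyl reductase, by 1.70. Akr1b10 and Akr1b3, both aldo-keto reductases, fell by 0.74 and 0.18.

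Glutathione S-transferases, which attach glutathione to reactive compounds, moved in both directions. Of 19 tested, 9 rose and 5 fell (9 and 8 under median-ratio scaling), and the median was 0.00. As deposited these shares were near those of all genes, 43% and 27.3%. All 4 alpha-class genes tested rose, and so did Gstp1, of the pi class, by 2.89. Gsta2 was too low in DMSO to be tested without its AEG 3482 libraries, so its rise adds little to that count. In the mu class Gstm1 rose by 1.43, while Gstm2 and Gstm5 fell by 0.74 and 0.39. Gsta4, which acts on products of lipid peroxidation (chromosome 9, 78182774 to 78209349), measured 1737, 1763 and 1866 TPM against 121 to 182 (median 144) TPM in DMSO and rose by 3.61 ± 0.08. Gsta3 rose by 2.51. Gsta1 measured 25.1, 25.7 and 32.4 TPM against 0.621 to 3.07 (median 1.72) TPM, and Gsta2 11.7, 14.1 and 23 TPM against 0.249 to 1.13 (median 0.433) TPM, both far lower levels than those of Gsta4. The transcripts of Gsta1 and Gsta2 share 92.9% and 60.7% of 31-base words with other genes, so how reads were divided among these near-copies is uncertain. Gstt1, of the theta class, fell by 1.40, from a DMSO median of 86.9 TPM to 32.8, 35.5 and 29.6 TPM.

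For heme and iron, 6 of 13 tested genes rose and 1 fell, a share of rises near the 43% of all genes, and 4 or 5 counted as lower under median-ratio or quantile scaling. Blvrb, a biliverdin reductase that acts after heme oxygenase, rose by 2.94. Slc40a1, the iron exporter ferroportin and a known NRF2 target, fell by 0.75 (limma adjusted p = 0.0052), with 8.85, 7.86 and 6.72 TPM against 9.25 to 25 (median 12.4) TPM in DMSO. Tfrc, the transferrin receptor, rose by 0.38. Of 6 tested drug exporters, 2 rose and 2 fell, where 43% of all genes rose and 27.3% fell. Abcc1 rose by 2.70 and Abcc4 by 2.43, both known to carry glutathione conjugates or related anions out of cells. Abcc5 fell by 0.62 and Abcg2 by 0.77.

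Of 10 tested regulators and partners of NRF2, 8 rose and 1 fell, with a median of 0.52. Nfe2l2, which encodes NRF2, measured 183, 175 and 186 TPM against 132 to 149.7 (median 139) TPM and rose by 0.38. Keap1 rose by 0.75 and Mafg, a partner protein of NRF2 on DNA, by 1.43. Sqstm1, the autophagy receptor p62 that binds KEAP1, rose by 0.97. Other antioxidant enzymes did not follow as a group, with 4 of 11 higher and 5 lower, or 2 and 6 under median-ratio scaling, against 43% and 27.3% of all genes as deposited. Cat, catalase, rose by 1.27. Sod2, the mitochondrial superoxide dismutase and a known NF-kB target, fell by 2.14, from a DMSO median of 201 TPM (range 200.1 to 214) to 46.5, 45.2 and 45.1 TPM. Gpx3, a secreted glutathione peroxidase, fell by 1.35.

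To show the DNA beside these values, RefSeq promoters (GRCm38.p6, 250 bases before to 50 after each gene start) were searched on both strands for the core of the antioxidant response element, TGACNNNGC, where N is any base. A match is a description of the letters and not evidence of binding. The table held a promoter for 9672 of the 12980 tested genes. Among these, the core was present for 90 of 443 that rose at least 2-fold (20.3%), 80 of 560 that fell at least 2-fold (14.3%) and 1618 of the 9672 (16.7%), so the share among the rises was above that of all tested genes by a few percentage points. Of all 32851 promoters in the table, 12.4% held it. By list, genes with an entry held the core in 1 of 4 cases for glutathione synthesis and 3 of 11 for thioredoxins. The counts were 3 of 9 for NADPH supply, 1 of 14 for quinone and aldehyde enzymes and 3 of 17 for glutathione S-transferases. They were 4 of 10 for NRF2 regulators, 2 of 9 for heme and iron and 1 of 9 for other antioxidant enzymes. The 5 stretches below were picked from strongly raised antioxidant genes whose window holds a match. These stretches show the core in capitals, on either strand, with 40 bases on each side. They lie at chr3:122245383-122245471 (plus strand, Gclm), chr10:82859074-82859162 (plus strand, Txnrd1), chr1:21240424-21240512 (plus strand, Gsta3), chrX:74428889-74428977 (minus strand, G6pdx) and chr4:116685426-116685514 (plus strand, Prdx1), each written 5′ to 3′ on the gene's own strand.
Gclm: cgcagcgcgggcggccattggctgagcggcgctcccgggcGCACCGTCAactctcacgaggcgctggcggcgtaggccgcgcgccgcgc
Txnrd1: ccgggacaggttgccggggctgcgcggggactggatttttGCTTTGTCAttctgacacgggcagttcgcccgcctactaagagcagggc
Gsta3: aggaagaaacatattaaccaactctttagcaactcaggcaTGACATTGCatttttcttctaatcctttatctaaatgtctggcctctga
G6pdx: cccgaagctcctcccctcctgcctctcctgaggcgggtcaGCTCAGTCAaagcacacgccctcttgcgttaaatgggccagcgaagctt
Prdx1: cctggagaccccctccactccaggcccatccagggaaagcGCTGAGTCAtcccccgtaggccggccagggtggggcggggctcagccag

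Cytosolic heat shock genes, the group tied to the known action of this compound, rose in 15 of 17 tested cases, 9 of them at least 2-fold, with a median of 1.03. Of all genes 43% rose, and 4.69% rose at least 2-fold. Hspa1b, 1 of the 2 inducible HSP70 genes (chromosome 17, 34956436 to 34959238), measured 173, 230.3 and 185 TPM under AEG 3482 and 16.6 to 28.7 (median 21.2) TPM under DMSO. Its lowest treated library was far above the highest control, and it rose by 3.10 ± 0.13 (limma adjusted p = 7.26e-17). Its neighbour Hspa1a rose by 1.83, to 23.2, 31.5 and 21.6 TPM. The 2 genes share 68.1% and 70.1% of their 31-base words with other genes, so their separate values are uncertain.

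Hspa4l, an HSP110-type exchange factor (chromosome 3, 40744495 to 40796103), measured 33.3, 38.7 and 37 TPM against 3.79 to 6.11 (median 4.24) TPM and rose by 2.77. Its relative Hsph1 rose by 1.44. The HSP40 genes Dnajb1 and Dnaja1 rose by 1.19 and 0.96, the small heat shock genes Hspb1 and Hspb8 by 1.05 and 1.12, and the HSP90 genes Hsp90aa1 and Hsp90ab1 by 1.09 and 0.76. Hsp90aa1 and Hspb1 share 51.5% and 55.4% of their 31-base words with other genes and are likewise uncertain. Cryab, alpha B-crystallin, had a log2 fold change of 0.15 and did not pass. Hsf1 itself fell by 0.26. The 12 tested cochaperones of HSP90 all rose, with a median of 0.48, although 3 of them no longer passed under median-ratio scaling. Fkbp4 rose by 0.68 and Ahsa1, which stimulates the HSP90 ATPase, by 0.52. The heat shock element, searched on both strands as 3 alternating GAA and TTC units with 2 bases between them, was found in the promoter window of 1 of 12 heat shock genes with an entry, Hsph1, and of 52 of 9672 tested genes (0.538%).

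Chaperones and proteases of mitochondria showed no common direction, with 4 of 10 higher and 3 lower, near the 43% and 27.3% of all genes. Their median of 0.01 turned negative under each rescaling of the libraries. All 31 tested proteasome subunits rose, with a median of 0.63. Psmd11, a lid subunit, measured 193, 182 and 203 TPM against 61.2 to 76 (median 65.3) TPM in DMSO and rose by 1.51, while Psmb6, a catalytic subunit, rose by 0.39. Under median-ratio scaling 29 of the 31 rose and none fell.

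Genes of the JNK cascade were mixed, where 43% of all genes rose and 27.3% fell. Of 14 tested, 8 rose and 3 fell, with a median of 0.42, and 2 more counted as lower under median-ratio scaling. Mapk9, which encodes JNK2, measured 84.2, 79.9 and 84.1 TPM against 35.8 to 44.1 (median 39.2) TPM and rose by 1.06, while Mapk8, which encodes JNK1, fell by 0.23 (limma adjusted p = 0.0311) with overlapping libraries. The upstream kinase gene Map2k4 rose by 0.58. The phosphatase genes Dusp1 and Dusp10, whose products switch JNK off, rose by 0.41 and 0.67, and Dusp16, of the same family, fell by 0.36. RNA levels do not report kinase activity, which was not measured here.

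Transcription factors of the AP-1 family, the nuclear end of that cascade, were also mixed. In this list 8 of 16 were higher and 3 lower, against 43% and 27.3% of all genes. Fosl1 measured 106, 115 and 112 TPM against 26.4 to 34.2 (median 32.4) TPM and rose by 1.79, the largest rise in the list. Jun rose by 0.60, Jund by 0.81 and Egr1 by 1.13, the last with a wide SE of 0.34. Junb fell by 0.53. Fos measured 12.4, 11.1 and 9.39 TPM against 6.32 to 16.9 (median 11.9) TPM, and Atf3 5.01, 6.67 and 5.46 against 4.32 to 7.48 (median 5.08), and neither passed.

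Among regulators of apoptosis, 12 of 20 rose and 6 fell, or 9 and 7 under median-ratio scaling, against 43% and 27.3% of all genes as deposited. Both groups of calls held survival genes and death genes. Bcl2l1, the gene of the survival protein BCL-XL, measured 54.5, 61.2 and 62.5 TPM against 25.7 to 29.1 (median 27.6) TPM and rose by 1.08, and Mcl1 rose by 0.48. Bax and Bbc3, which promote death, both rose by 0.83. Birc3, an inhibitor of apoptosis and known NF-kB target, fell by 2.01, from a DMSO median of 76.9 TPM (range 65.8 to 90.2) to 19.4, 18.4 and 17.9 TPM.

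Targets of p53 rose in 18 of 22 tested cases, against 43% of all genes, with a median of 0.82. Cdkn1a, which encodes the cell cycle inhibitor p21 (chromosome 17, 29090976 to 29100727), measured 1142, 1224 and 1172 TPM under AEG 3482 and 397 to 465 (median 445) TPM under DMSO and rose by 1.43 ± 0.05. Mdm2, which encodes the ligase that removes p53, measured 368, 355 and 362 TPM against 100.2 to 142 (median 112) TPM and rose by 1.66. Phlda3 rose by 1.19. Gdf15, a secreted stress cytokine raised by p53 and by ATF4, measured 55.7, 65 and 59.1 TPM against 3.87 to 5.92 (median 5.1) TPM and rose by 3.34. Fas, Sesn1 and Ddb2 fell, by 1.53, 0.48 and 0.24. Genes of replication and mitosis showed no common direction, with 10 of 27 higher and 8 lower, against 43% and 27.3% of all genes. Cdk1, the mitotic kinase, fell by 1.95 to 5.04, 9.53 and 8.45 TPM, while Mcm7, of the replicative helicase, rose by 0.96.

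In the integrated stress response, through which ATF4 raises amino acid genes, 19 of 28 tested genes rose and 5 fell, with a median of 0.48. Of all genes 43% rose and 27.3% fell. Chac1, which degrades glutathione, measured 11.3, 14.5 and 11.8 TPM against 2.35 to 3.95 (median 3.12) TPM and rose by 1.72. The amino acid transporters Slc1a4, Slc7a1 and Slc7a5 rose by 1.75, 1.54 and 1.31. Atf4 rose by 0.49 and Asns, asparagine synthetase, by 0.53. Cth, which makes cysteine, fell by 1.13. The endoplasmic reticulum chaperone gene Hspa5 fell by 0.25 and Xbp1 by 0.60, in a list where 16 of 23 rose and 4 fell. Median-ratio scaling gave 11 and 6 for this list, and 4406 higher and 4542 lower for all 12980 genes.

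Most inflammatory genes were lower under AEG 3482 than in the solvent. All 16 tested chemokine genes fell, with a median of −2.53, and 18 of 20 NF-kB and inflammatory genes fell, with a median of −1.79. Saa3 (chromosome 7, 46711998 to 46715700) measured 2335, 2230.3 and 2033 TPM under AEG 3482. In DMSO its lowest library had 29576 TPM, the median was 32566 and the highest 34957. It fell by 3.88 ± 0.12 (limma adjusted p = 1.07e-19), with no overlap. Lcn2, lipocalin 2, an iron-scavenging acute phase protein, fell from a DMSO median of 2417 TPM (range 2027 to 2803) to 162, 153 and 167 TPM. Together the 20 genes of the list summed to 35500.4 to 41928 TPM under DMSO and 3894 to 4218 TPM under AEG 3482. Most of that drop was Saa3 alone, which averaged 32372 TPM under DMSO and 2199 TPM under AEG 3482.

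Nos2, inducible nitric oxide synthase (chromosome 11, 78920787 to 78960254), measured 0.348, 0.12 and 0.692 TPM under AEG 3482 and 44 to 76 (median 62.3) TPM under DMSO. It was close to 0 in every treated library and fell by 5.52 ± 0.22. Il6 was listed at 0 in 2 treated libraries and at 0.389 TPM in the other, against 10 to 18.5 (median 15.5) TPM in DMSO. Tlr2, a receptor for bacterial lipoproteins, fell by 3.53. Tnfaip3 and Nfkbia, feedback inhibitors that NF-kB itself raises, fell by 3.74 and 1.94. The subunit genes changed far less: Nfkb1 fell by 0.60, Relb by 0.68 and Nfkb2 by 0.24, and Rela had a log2 fold change of 0.00. Among abundant chemokines, Cxcl5 fell from a DMSO median of 7848 TPM (range 7038 to 8632) to 749, 575 and 647 TPM and Ccl2 from a DMSO median of 4717 TPM (range 4221 to 4938) to 638, 586 and 559 TPM.

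An exception among these genes was Ptgs2, cyclooxygenase 2, usually raised in inflammation. It measured 139, 145 and 149 TPM against 21.8 to 30.8 (median 24.8) TPM and rose by 2.48 ± 0.09 (limma adjusted p = 5.34e-18). Ptgs1 rose by 1.08, while Ptges, which makes prostaglandin E2 from their product, had a log2 fold change of −0.13 and did not pass in the data as deposited, although it counted as lower under each rescaling. Csf1, the macrophage growth factor, was the only member of the NF-kB list that rose, by 0.30.

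The 7 leukocyte and macrophage markers summed to 147 to 164 TPM under AEG 3482 and 192 to 252 TPM under DMSO. Of the 5 tested, 4 fell: Adgre1 by 1.72, Csf1r by 0.77, Lyz2 by 0.62 and Cd14 by 0.21. Ptprc, the defining surface gene of leukocytes, stayed below 1 TPM in all 9 libraries, as did Itgam. The 5 endothelial markers summed to 1.63 to 1.77 TPM under AEG 3482 and 5.42 to 8.75 TPM under DMSO and the 6 adipocyte markers to 6.47 to 8.8 TPM under AEG 3482 and 19.9 to 29.5 TPM under DMSO. Their part in the falls was not tested. In bulk RNA, fewer cells of a type and less RNA per cell cannot be told apart.

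Interferon-stimulated genes fell in 22 of 27 tested cases, where 27.3% of all genes fell. Their median was −0.66, against −2.53 for the chemokines. Ifit3, an antiviral protein gene that shares 61.8% of its 31-base words with other genes, fell by 1.88, from a DMSO median of 132 TPM (range 71.9 to 140.1) to 35.1, 34.1 and 25.3 TPM. Isg15, a ubiquitin-like modifier, fell by 1.15 and Ifit1 by 1.20. Ifi27 rose by 0.26, a call that was lost under median-ratio scaling. Antigen presentation genes fell in 12 of 13 cases, with a median of −0.75, led by the immunoproteasome subunits Psmb8 and Psmb9, by 2.28 and 1.88, while the constitutive subunits rose as described above. Tap1, the peptide transporter, measured 33.1, 35.5 and 28.9 TPM against 24.1 to 34 (median 31.6) TPM and did not pass.

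The interferon-stimulated response element, searched on both strands as a pair of GAAA units with 2 bases between them, was present in the promoter window of 10 of 18 interferon genes with an entry (55.6%), of 45 of 560 genes that fell at least 2-fold (8.04%), of 7 of 443 that rose at least 2-fold (1.58%) and of 361 of 9672 tested (3.73%). Over all 32851 promoters it was present in 3.44%. Ifit3, Ifit1 and Isg15 are shown because their windows hold several matches, and Saa3 because it is the most abundant gene that fell. They lie at chr19:34583333-34583456 (plus strand, Ifit3), chr19:34640745-34640853 (plus strand, Ifit1), chr4:156200835-156200936 (minus strand, Isg15) and chr7:46715752-46715841 (minus strand, Saa3), with matches on either strand in capitals. The 3 matches of Isg15 overlap, and they appear as 1 run of capitals.
Ifit3: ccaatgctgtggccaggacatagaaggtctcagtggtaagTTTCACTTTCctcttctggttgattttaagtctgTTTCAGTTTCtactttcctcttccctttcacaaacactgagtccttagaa
Ifit1: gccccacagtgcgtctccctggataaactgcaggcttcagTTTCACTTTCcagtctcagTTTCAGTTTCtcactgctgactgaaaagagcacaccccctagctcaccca
Isg15: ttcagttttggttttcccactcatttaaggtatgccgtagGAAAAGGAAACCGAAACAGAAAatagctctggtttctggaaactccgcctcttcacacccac
Saa3: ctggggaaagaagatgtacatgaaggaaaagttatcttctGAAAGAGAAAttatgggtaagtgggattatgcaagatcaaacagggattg

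Contractile and matrix genes also fell. Of 18 tested myofibroblast genes 15 fell, with a median of −1.22. The 5 pericyte and smooth muscle markers summed to 3.6 to 4.36 TPM under AEG 3482 and 5.41 to 6.83 TPM under DMSO, and their part in these falls was not tested. Myl9, a regulatory myosin light chain, fell from a DMSO median of 104 TPM (range 89.9 to 136) to 8.01, 6.31 and 6 TPM, and Tagln, transgelin, from a DMSO median of 134 TPM (range 111 to 164) to 19.7, 15.4 and 10.9 TPM. Their log2 fold changes were −3.80 and −3.09. Flna, filamin A, was the 1 gene of the list that rose, by 0.53. Of the YAP targets 5 of 8 fell and 1 rose, where 27.3% of all genes fell and 43% rose. The 1 that rose did so at least 2-fold and was higher than in all 8 other groups. Ccn2, connective tissue growth factor (chromosome 10, 24595442 to 24598683), fell from a DMSO median of 126 TPM (range 103 to 167) to 7.35, 7.37 and 6.77 TPM and Ccn1 by 1.63.

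Matrix genes other than collagens fell in 24 of 34 cases, with a median of −0.59. The small proteoglycan genes Lum and Dcn fell by 1.59 and 1.27, and Postn, periostin, by 1.13. Collagens had no common direction, with 6 of 20 higher and 7 lower, against 43% and 27.3% of all genes. Col3a1 measured 4951, 4722 and 4522 TPM against 2486 to 3027 (median 2737) TPM and rose by 0.80, while Col1a2 fell by 0.60 and Col1a1 had 1045, 837 and 752 TPM against 821 to 1275 (median 935) TPM and did not pass, although it counted as lower under median-ratio scaling. Metalloproteinases and their inhibitors fell in 14 of 18 cases, with a median of −0.68, among them Mmp9 by 2.64, Mmp13 by 1.98, Mmp3 by 1.47 and the inhibitor Timp3 by 1.08.

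Of the TGF-beta genes, whose signal maintains myofibroblasts, 7 of 20 rose and 6 fell, against 43% and 27.3% of all genes. Median-ratio scaling gave 7 and 9. Tgfb1 rose by 1.10, Tgfb3 fell by 0.88, and Tgfbi, a matrix protein raised by the pathway, fell by 2.58. In the insulin-like growth factor system 7 of 14 fell, led by the binding protein gene Igfbp5, which went from a DMSO median of 197 TPM (range 166 to 245) to 30.4, 24.2 and 26.3 TPM, and by the ligand gene Igf1, which fell by 1.68.

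**Figure D3:**
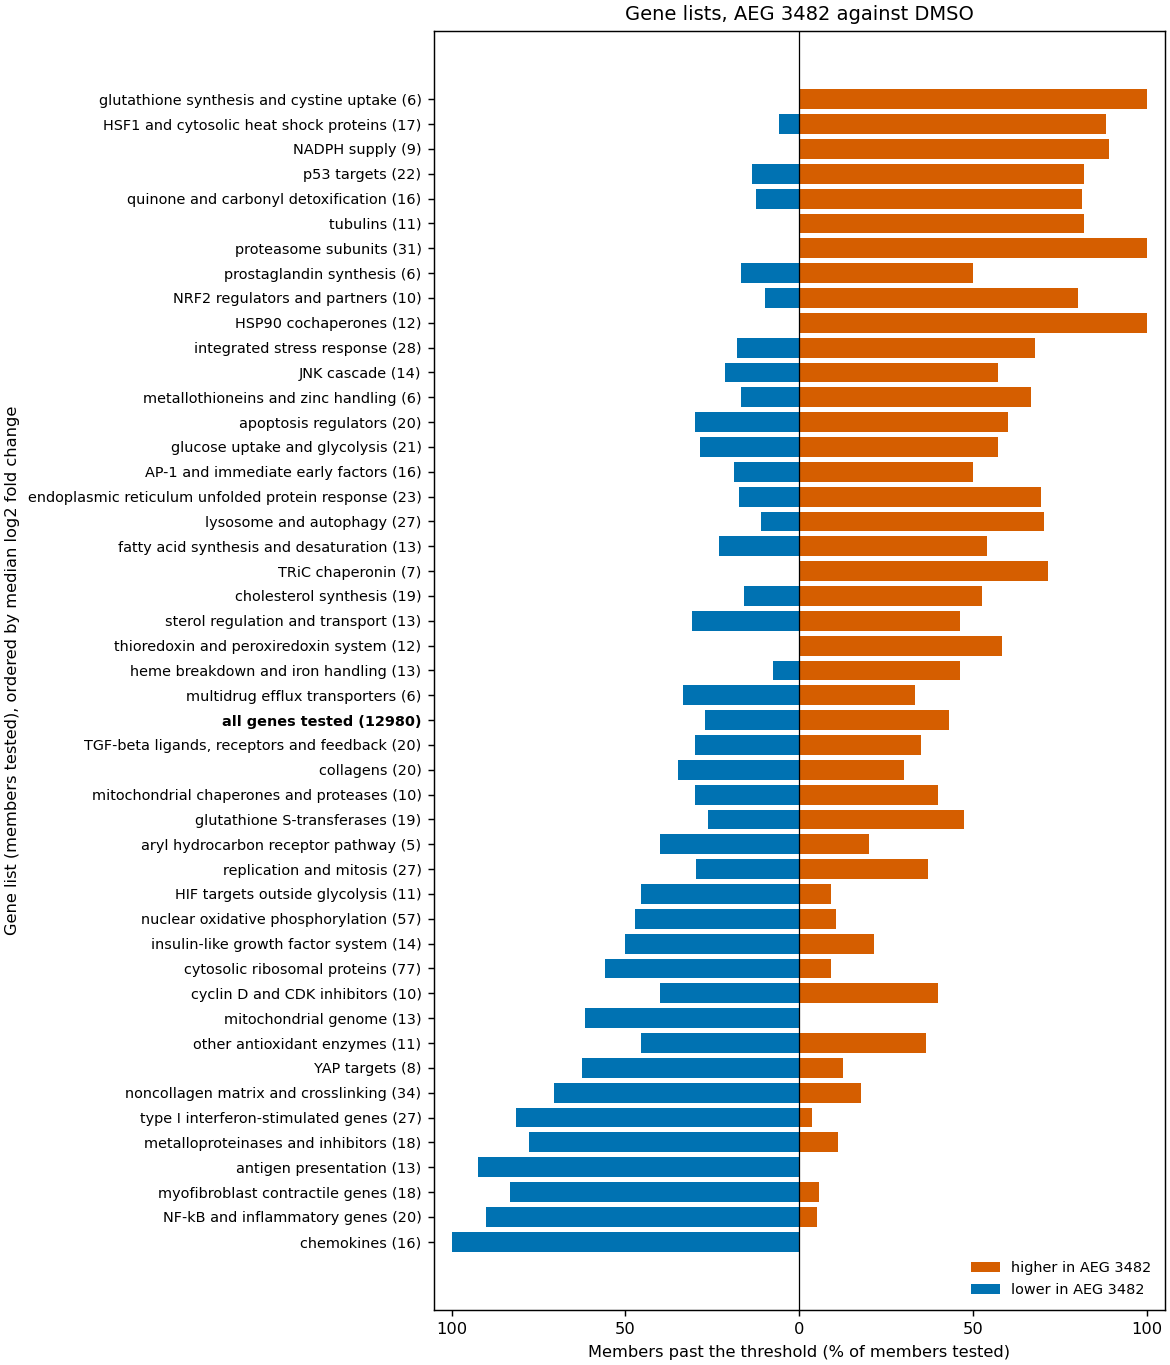
Bars give the percentage of tested members of each gene list that were higher (orange, right) or lower (blue, left) in AEG 3482 than in DMSO at an adjusted p below 0.05, with the number tested in parentheses and lists ordered by median log2 fold change. All genes tested, in bold, had 43% higher and 27.3% lower; glutathione synthesis, proteasome subunits and HSP90 cochaperones reach 100% higher, and chemokines 100% lower.

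Lipid and sugar genes were mixed, where 43% of all genes rose and 27.3% fell. In cholesterol synthesis 10 of 19 rose and 3 fell, with a median of 0.18, and 6 rose under median-ratio scaling. Hsd17b7, which acts late in the pathway, measured 42.8, 42.7 and 43.9 TPM against 11.2 to 14.3 (median 11.8) TPM and rose by 1.74. Ch25h, which makes the signalling sterol 25-hydroxycholesterol, fell from a DMSO median of 29.4 TPM (range 22.6 to 33.6) to 0.554, 0.517 and 0.663 TPM. In glycolysis 12 of 21 rose and 6 fell. Slc2a1, the glucose transporter GLUT1, rose by 1.44 and Pkm, pyruvate kinase, by 1.22, whereas Ldha fell by 0.66 and Pfkfb3, which makes an activator of glycolysis, by 2.23.

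Cardamonin was then compared with AEG 3482 directly, without DMSO. Of 12980 genes 7457 (57.4%) differed at a limma adjusted p below 0.05, 4451 of them higher in AEG 3482 (34.3%) and 3006 lower (23.2%), and 884 (6.81%) differed at least 2-fold, 592 higher (4.56%) and 292 lower (2.25%). The doses of both are unknown, so a difference in strength of exposure and a difference in kind cannot be told apart. Hmox1 averaged 7249 TPM under AEG 3482 and 12073 TPM under Cardamonin. All 6 glutathione genes were lower in AEG 3482 than in Cardamonin, with a median of −0.90, but Srxn1 (−0.12, limma adjusted p = 0.178) and Txnrd1 (−0.06, limma adjusted p = 0.599) did not pass, and Gstp1 was higher by 0.23.

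The integrated stress response was lower in AEG 3482 for 23 of 28 genes, with a median of −0.73. Trib3, a pseudokinase raised by ATF4 and CHOP, averaged 9.07 TPM against 72.8 TPM under Cardamonin, a difference of −2.88. The proteasome was lower for 23 of 31 genes. Most heat shock genes were lower too, 10 of 17, but Hspa1b was higher by 0.75, Hspa4l by 0.63 and Dnajb1 by 0.21.

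Interferon and matrix genes stood the other way. In AEG 3482, 21 of 27 interferon-stimulated genes were higher than in Cardamonin and none lower, with a median difference of 1.10. Ifit1 averaged 28.9 TPM under AEG 3482, 4.32 TPM under Cardamonin and 68.5 TPM under DMSO. Of the collagens 17 of 20 were higher, with a median of 0.93, and of the other matrix genes 28 of 34. Col3a1 averaged 4732 TPM against 1273 TPM. Thbs1, thrombospondin 1, was higher by 3.56 and Tnc, tenascin C, by 3.14. In cholesterol synthesis 17 of 19 genes were higher, with a median of 0.83. The inflammatory lists lay close to Cardamonin by their medians. Of 16 chemokines 3 were higher in AEG 3482 and 2 lower, with a median of 0.09. Of 20 NF-kB and inflammatory genes 5 were higher and 9 lower, with a median of −0.16. Of all genes 34.3% were higher and 23.2% lower.

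The largest single differences above Cardamonin by the naming rule were in Aspn, Angptl7, Thbs1, Tslp and Slc44a2. Aspn, a small matrix proteoglycan gene, averaged 52.6 TPM against 1.39 TPM, and Angptl7, of the angiopoietin-like family, 41.6 against 1.69 TPM. Slc44a2, a choline transporter-like gene, averaged 90.9 TPM against 8.47 TPM and 36.2 TPM under DMSO. Tslp, an epithelial and stromal cytokine gene, measured 13.4, 12 and 14.3 TPM and its DMSO libraries 9.4 to 13.6 (median 12) TPM, where it did not pass, but it averaged 0.359 TPM under Cardamonin. The largest differences below Cardamonin were in Cd24a, Chchd10, Gsta2, Nos2 and Trib3. Cd24a averaged 1.99 TPM against 42.5 TPM and Chchd10, a mitochondrial protein gene, 7.07 against 93.6 TPM. Against DMSO neither of these 2 genes passed.

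**Figure D4:**
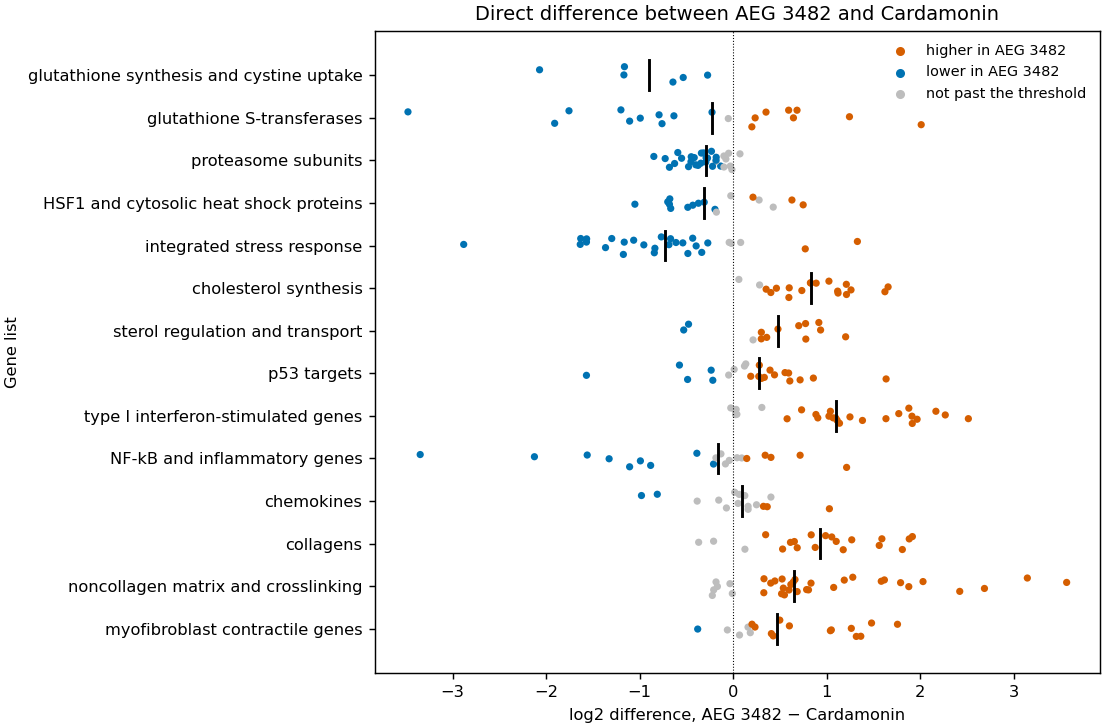
Each point is a list member's log2 difference, AEG 3482 minus Cardamonin, from 3 libraries each; orange points were higher in AEG 3482, blue lower, grey did not pass, and black bars are list medians. Glutathione and stress response lists lie left of 0, and cholesterol, interferon, collagen and other matrix lists lie right of 0.

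Genes that set AEG 3482 apart from every other group were those that differed, in the same direction, from all 7 other compounds and from DMSO. There were 2486 (19.2%), 1690 higher (13%) and 796 lower (6.13%). Higher than every other group by the widest margin were Myzap, Shisa4, C2cd4a, Sema7a and Vgf. Shisa4, of a family of membrane adaptor proteins (chromosome 1, 135371057 to 135375237), measured 117, 126 and 121 TPM under AEG 3482, and the other group means lay between 20.6 and 29.5 TPM. Vgf, a secreted neuropeptide precursor, measured 28.2, 28.8 and 33.9 TPM, with other group means of 3.34 to 8.49 TPM. For Sema7a, a membrane-anchored semaphorin, the values were 31.5, 33.3 and 33.3 TPM and other means of 2.03 to 8.98 TPM. Myzap, a gene of a cell junction protein, measured 29.1, 29.5 and 33.1 TPM, and C2cd4a, of a nuclear protein family, 5.64, 7.39 and 7.5 TPM, with other group means of 4.2 to 5.87 and 0.403 to 1.23 TPM. In all 5 genes the treated libraries lay above every library of the other groups, which largely follows from picking genes by the widest margin. None of the 5 belongs to the antioxidant or heat shock lists. The Cardamonin libraries were also above every DMSO library for Shisa4, Sema7a and Vgf, by less, and overlapped them for Myzap and C2cd4a. For Vgf they measured 7.74, 8.72 and 9.01 TPM.

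Lower than every other group were Nos2, Dio2, Adhfe1, Mcoln2 and Tlr2. Dio2, the deiodinase that activates thyroid hormone, measured 1.47, 1.21 and 1.45 TPM, while other group means lay between 9.43 and 43.7 TPM. Adhfe1, a mitochondrial alcohol dehydrogenase gene, measured 1.24, 1.14 and 0.998 TPM against 8.34 to 22.5 TPM, and Mcoln2, a lysosomal cation channel gene, 0.739, 0.807 and 0.585 TPM against 6.49 to 16.1 TPM. The Cardamonin libraries were also below every DMSO library for Nos2, Dio2, Adhfe1 and Tlr2, by less, and above every one for Mcoln2. For Tlr2 they measured 46.5, 45.9 and 36 TPM. By list, 9 of 22 p53 targets and 9 of 19 cholesterol synthesis genes were higher than in all 8 other groups, where 13% of all genes were. Cdkn1a averaged 1179 TPM against at most 782 TPM elsewhere, and Hsd17b7 43.1 against at most 13 TPM. Of the 17 heat shock genes, 3 were higher than in all 8, Hspa1b, Hspa4l and Dnajb1, and 1 was lower. The shares of all genes were 13% and 6.13%. Of the inflammatory list 9 of 20 were lower than in all 8, and of the chemokines 2 of 16, against 6.13% of all genes. No gene of the glutathione synthesis, proteasome or thioredoxin lists was higher than in all 8, while 2 of 19 glutathione S-transferases were.

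**Figure D5:**
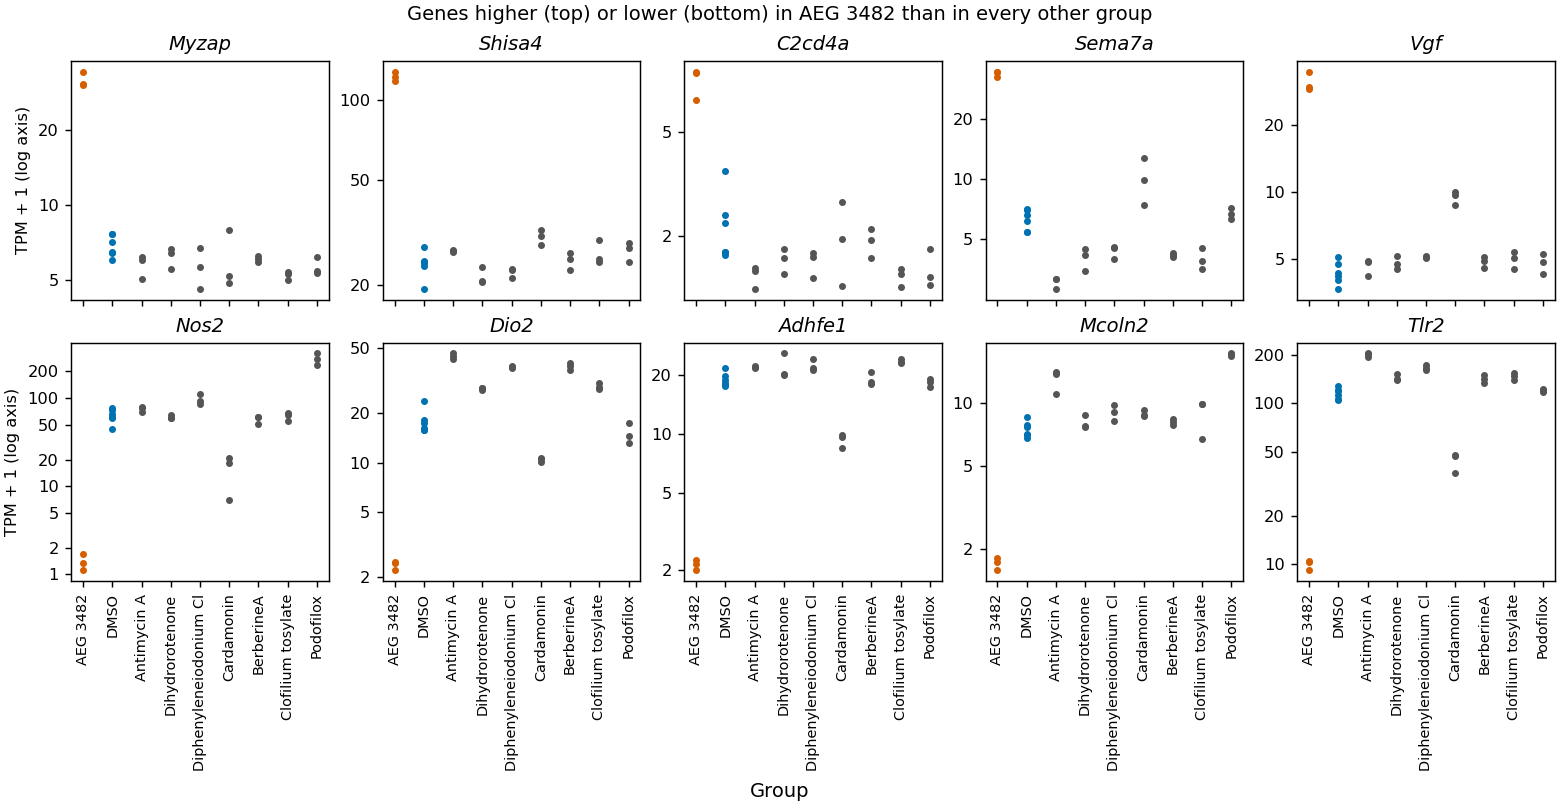
TPM + 1 on a log axis for the 10 genes that stood furthest from every other group, with 1 point per library in all 9 groups (AEG 3482 orange, DMSO blue, other compounds grey). In each panel the 3 orange points lie beyond all other points, above them in the top row and below them in the bottom row. The genes were picked for the width of that margin.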

How the data were processed

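Gene levels were deposited by the authors as TPM in 1 table of 30 libraries. Per the submitters' processing notes, reads were assigned with kallisto 0.43.1 and the build was mm10. The series text also names tximport and DESeq2 for the authors' own analysis. The transcript index is not given in the sources used here. Gene symbols and positions come from GENCODE M21 (GRCm38) and matched 98.8% of the 29861 genes, and all coordinates are on GRCm38. TPM is a share of each library, so a large change in abundant genes moves all others.

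Levels were taken as log2(TPM + 1), a scale that understates changes of low genes, and fitted over all 30 libraries by limma 3.58.1 (R 4.3.3), which estimated each group's mean and used an intensity trend, so all groups share 1 estimate of spread. P-values were adjusted by Benjamini-Hochberg over the 12980 genes, and SE is that of the fit. Genes that passed, whose higher group averaged 5 TPM or more, whose libraries did not overlap and that had an established symbol were named by size: the 12 largest each way against DMSO and the 5 largest each way against Cardamonin. For genes apart from every other group, the 5 each way with the largest smallest difference over 8 contrasts were named. Other genes named belong to gene lists. The genes, lists and comparisons were chosen with earlier results of these data known. Same-numbered replicates of the 2 groups were checked for shared deviations (r = 0.029, 0.030 and −0.028), and the numbers do not pair them. Promoter sequences are from RefSeq (GRCm38.p6), and matches to DNA motifs were counted on both strands. A count model was not used, because TPM holds no counts.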

Additional observations from a re-analysis of the deposited data

Results flagged for a closer look

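Among 45 measures of named genes and groups tested, 3 had a DMSO library far from the other 5, where chance gives about 1 in 20. Aldh3a1 was at 52.2 TPM in DMSO replicate 4, against 29.8 to 36.8 TPM in the others. Dio2 was at 22.6 TPM in the same library, against 14.7 to 17.2 TPM. Trib3 was at 3.05 TPM in DMSO replicate 1, against 4.26 to 4.97 TPM. In each case the AEG 3482 libraries still lay outside the whole DMSO range.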

How the results depend on the processing

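The 24 genes named for their change against DMSO, the 10 named against Cardamonin and the 10 named as apart from every other group kept their direction and stayed past the limma threshold, each in its own comparison, under every alternative run for it. These genes were picked from the same libraries for the size of their differences, so that outcome was largely set by the choice. The share of changed genes that were higher was 49.2% under median-ratio scaling and 61.2% as deposited. The 2-fold count depended on the pseudocount, with 708 genes at a pseudocount of 5 in place of 1412. Leaving out 1 library at a time gave 8510 to 9055 changed genes, 1384 to 1474 changed at least 2-fold, 6855 to 7060 that differed from Cardamonin and 2202 to 2525 that stood apart from every other group. With the replicate number as a replicate block, 8747 genes changed, though the numbers do not pair the samples. Of the gene list medians, 5 changed sign, all of them near 0 as deposited: mitochondrial chaperones (−0.120 under median-ratio scaling, −0.164 under quantile normalization, −0.045 rescaled without the 20 most abundant genes, and −0.0109 to 0.0256 leaving out 1 library), collagens (−0.0626 and −0.0904 under the first 2 of these), TGF-beta genes (−0.0501 and −0.0496 under these), replication and mitosis (0.30 among genes with a mean of at least 5 TPM, 0.0805 under quantile normalization, 0.00607 under the replicate block, and −0.0794 to 0.0516 leaving out 1 library) and glutathione S-transferases (−0.0303 to 0.0401 leaving out 1 library). The cause was not tested. Depth is unknown, so counting error could not be given for any value.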

Other observations

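Tubulins rose in 9 of 11 tested cases (7 under median-ratio scaling), with a median of 0.67, against 43% of all genes. Tubb4b measured 248, 269 and 261 TPM against 82.5 to 95.9 (median 92.2) TPM in DMSO, and Tubb2a rose by 1.12 and Tuba4a by 1.27; 53%, 56.4% and 38.4% of their 31-base words occur in other genes, which makes their separate values uncertain. Of the 11 tubulins, 4 were higher under AEG 3482 than in all 8 other groups, where 13% of all genes were. Lysosome and autophagy genes rose in 19 of 27 cases and fell in 3, which became 13 and 7 under median-ratio scaling, where 4406 of all 12980 genes were higher and 4542 lower.

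Of 77 cytosolic ribosomal protein genes 43 fell and 7 rose, with a median of −0.18, and of 57 nuclear genes of oxidative phosphorylation 27 fell and 6 rose, with a median of −0.12. Falls outnumbered rises in both lists under each rescaling, with 57 and 36 lower under median-ratio scaling. Of all genes, 27.3% fell as deposited, and 4542 of 12980 were lower under median-ratio scaling. Of the 13 protein genes of the mitochondrial genome 8 fell and none rose, but quantile normalization gave 2 lower and 2 higher. Of 6 metallothionein and zinc genes 4 rose and 1 fell, and their summed level was 3279 to 3477 TPM against 2837 to 3771 TPM, so the groups overlapped in total. Of 5 tested genes of the aryl hydrocarbon receptor pathway, 1 rose and 2 fell, with a median of −0.02, where 43% of all genes rose and 27.3% fell. Cyp1b1, a target of the receptor, fell by 2.69, from a DMSO median of 84.5 TPM (range 64.4 to 109) to 12.7, 10.9 and 12.6 TPM. Ahrr fell by 0.52, while Tiparp rose by 0.35.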
